A study of Mus musculus with 2 samples.

Results

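The genes described are 10 forkhead transcription factors: Foxo1, Foxo3, Foxo4, Foxp1, Foxp4, Foxk1, Foxn3, Foxj2, Foxm1 and Foxd4. They were chosen by gene symbol from the platform annotation, which named 34 probe sets for one of them alone, among 18193 genes with a probe set of their own. The 2 samples were neutrophils grown for 6 days from haematopoietic progenitors of male C57BL/6 mice, in medium with granulocyte colony-stimulating factor (G-CSF), which supports the growth of neutrophil precursors, and stem cell factor (SCF), which sustains progenitors. One sample came from wild-type mice and the other from mir-223 knockout mice, and both had received cycloheximide, a blocker of translation, at 100 ug/ml for the last 8 min. Total RNA of each genotype was hybridised to 1 Affymetrix 3' array. The labels do not say how many mice gave each culture. With 1 array in each genotype there is no replicate spread, so no difference was tested, and precision is limited by the number of arrays. A difference is the knockout value less the wild-type value, each taken as log2(intensity + 16).

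Forkhead factors share a winged-helix domain that binds DNA. The FoxO class is restrained by growth factor signalling: PI3K activates the kinase Akt, Akt phosphorylates FoxO proteins, and the phosphorylated proteins are held in the cytoplasm by 14-3-3 proteins. When that signal is low, FoxO proteins enter the nucleus and activate genes of cell cycle arrest, apoptosis, stress resistance and autophagy. Foxo1 and Foxo3 have been reported as targets of miR-223 in other cells. A microRNA pairs through its seed with messenger RNA and lowers its stability or translation, so the comparison asks whether these messages differ when miR-223 is missing.

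The missing microRNA is shown because it defines the comparison. Both mature strands are from RefSeq on GRCm38.p6, written 5′ to 3′ with the seed, bases 2 to 8, in capitals. The 3p strand lies at chrX:96242884-96242905 and the 5p strand at chrX:96242842-96242864, both on the plus strand.
mmu-miR-223-3p: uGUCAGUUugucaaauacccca
mmu-miR-223-5p: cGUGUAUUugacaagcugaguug
The seeds of the 2 strands differ. Sites for either seed in the forkhead messages were not analysed here. Of the 10 members, Foxo4 is encoded on the X chromosome, as is the microRNA, and the others on autosomes.

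All 10 members counted as expressed, meaning that the brightest probe set of the gene had a mean log2 value of at least 5.64, the median over all probe sets. That cut corresponds to an intensity of 33.9. On these brightest probe sets 9 members were higher on the knockout array and 1, Foxk1, was lower. Among all 11006 expressed genes 49.7% were higher. The members' median difference was 0.11, against -0.00037 over all expressed genes. By at least 0.2, 4 members were higher (Foxd4, Foxn3, Foxo3 and Foxo1), where 12.1% of expressed genes were, and none was lower, where 8.27% of genes were. By at least 0.5 the count was 1 member, Foxd4, against 1.13% of genes. The spread at hand is that among the expressed probe sets of one gene, a pooled SD of 0.14 over 5017 genes, which is a spread within these arrays and not a replicate error. Poly-A control RNAs were lower on the knockout array, and centring on them adds 0.17 to every difference. In bulk RNA, fewer cells of a type and less RNA per cell cannot be told apart.

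**Figure D1:**
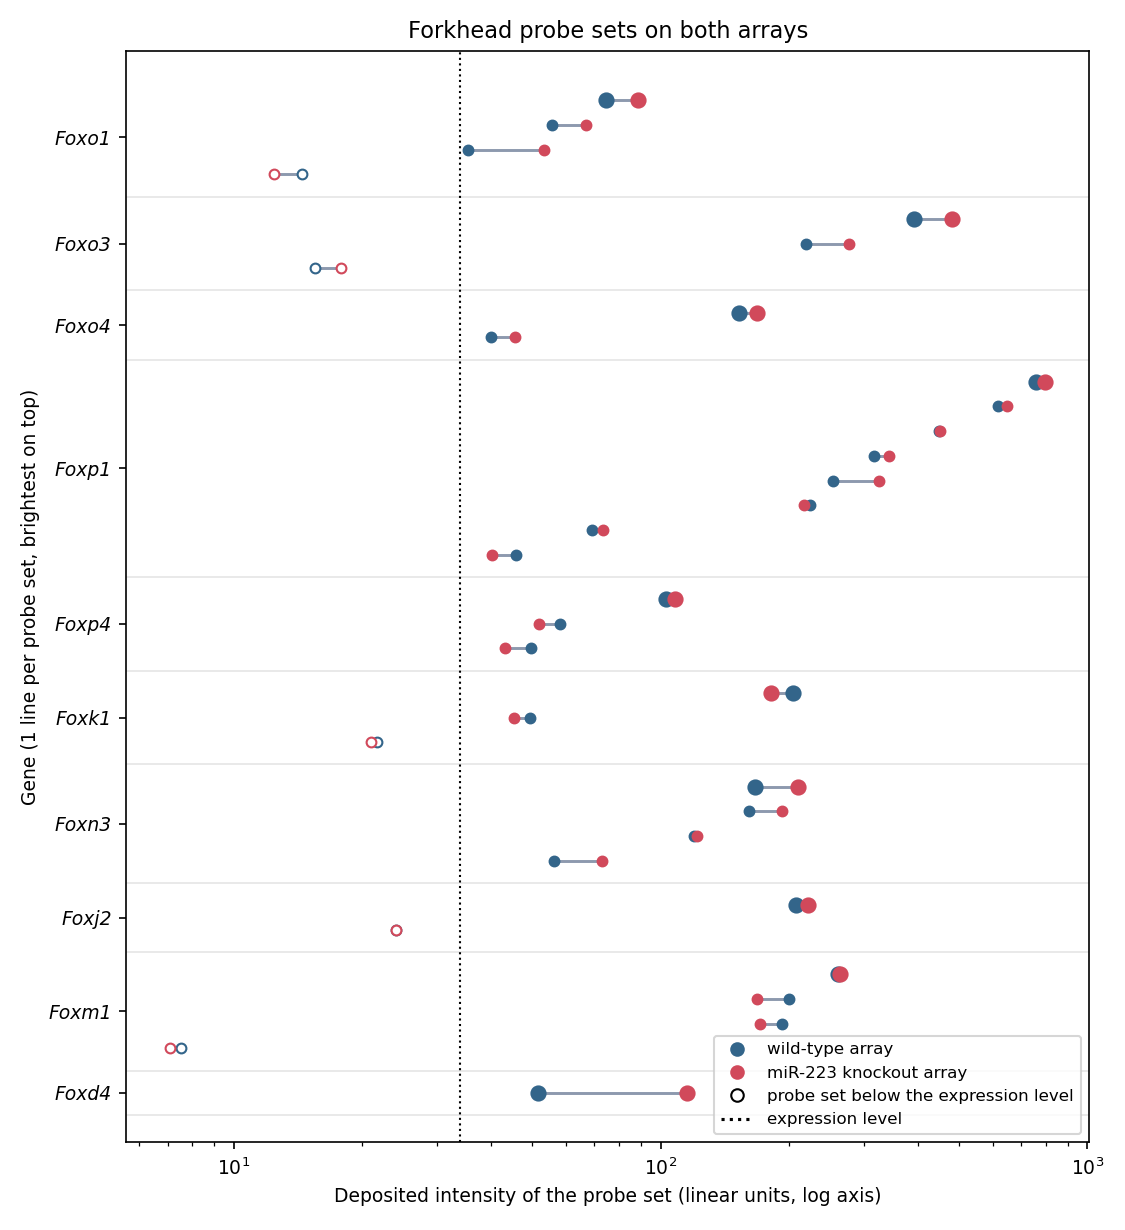
Deposited intensity (linear units on a log axis) of all 34 forkhead probe sets on the wild-type array (blue) and the knockout array (red), 1 line per probe set, the brightest of each gene on top with larger points. Open points are probe sets below the expression level of 33.9 (dotted). The expressed probe sets of Foxo1, Foxo3, Foxo4 and Foxn3 are brighter on the knockout array, those of Foxk1 are dimmer, and Foxp1, Foxp4 and Foxm1 have probe sets of both directions.

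The FoxO genes were higher on every expressed probe set. Foxo3, known to keep neutrophils alive during inflammation by repressing Fas ligand, was measured at 393 in the wild type and 483 in the knockout, a difference of 0.28. Its other expressed probe set gave 219 and 276, a difference of 0.31, so the 2 probe sets differed by about the same size. The annotation gives both the same source sequence, so they are not independent readings. Fasl itself, the gene of Fas ligand, was below the expression level on both arrays at 8.44. The remaining Foxo3 probe set was below the expression level, at 15.5 and 17.8. The difference of the brightest probe set lay at the 94.0th percentile of all expressed genes and was 1.98 times the SD between probe sets.

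Foxo1, which controls metabolism and lymphocyte development, was measured by 4 probe sets. The brightest gave 74.4 in the wild type and 88.5 in the knockout, a difference of 0.21 at the 88.9th percentile. A further probe set gave 55.6 and 66.8, also 0.21, and the dimmest expressed one gave 35.4 and 53.5, a difference of 0.43. The annotation gives all 3 expressed probe sets the same source sequence, so they are not independent readings. The fourth probe set, from another source sequence, was below the expression level and lower in the knockout, at 14.5 and 12.4. With expressed genes split by level into 4 classes of equal size, Foxo1 stood in the dimmest, where the added 16 shrinks differences: its intensity ratio, knockout over wild type, was 1.19, and its fold on the log2 scale with 16 added was 1.16.

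Foxo4, the X-linked FoxO gene, gave 153 and 169 on its brighter probe set (0.13) and 40.1 and 45.6 on the other (0.14). Both differences were smaller than the SD between probe sets. The median of the 3 FoxO genes was 0.21.

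The FoxP genes showed small differences of mixed sign. Foxp1, a repressor needed in B cells and known for holding back monocyte differentiation, had 8 expressed probe sets. Its brightest gave 758 in the wild type and 797 in the knockout, a difference of 0.071, and the next gave 617 and 648, a difference of 0.069. Over the 8 probe sets the differences ran from -0.14 (45.8 and 40.2) to 0.35 (253 and 326), 6 higher and 2 lower, with a median of 0.070. The probe sets of this single gene thus spanned more than the whole difference of Foxo3. Foxp4, a close relative that can pair with Foxp1, was higher on its brightest probe set (103 and 108, 0.062). It was lower on the other 2, at 58.2 and 52.0 (-0.13) and at 49.8 and 43.2 (-0.15), so that the median of its probe sets was -0.13. The sign of Foxp4 therefore depends on the probe set.

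Foxk1, a repressor that with Foxk2 promotes glycolysis and holds back autophagy genes, was the only member lower on its brightest probe set. That probe set gave 205 in the wild type and 181 in the knockout (-0.16, the 12.8th percentile). The other expressed probe set gave 49.6 and 45.4 (-0.094), and the third, below the expression level, gave 21.7 and 20.9. All 3 were lower as deposited. On a scale centred on the poly-A control RNAs Foxk1 stood at 0.010.

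Foxn3, a repressor also known as a checkpoint suppressor, was as different as Foxo3. Its brightest probe set gave 167 in the wild type and 210 in the knockout, a difference of 0.31 at the 95.0th percentile. The other 3 gave 0.24 (161 and 192), 0.019 (120 and 122) and 0.30 (56.1 and 72.8). All 4 were higher, but 1 of them was close to 0. Foxj2, a widely expressed activator, gave 208 and 222 (0.088) on 1 expressed probe set, and 24.0 on both arrays on the other.

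Foxm1, the activator of mitotic genes in dividing cells, showed no settled direction. Its brightest probe set gave 260 in the wild type and 263 in the knockout (0.015). The other 2 expressed probe sets were lower, at 200.1 and 169 (-0.23) and at 193 and 171 (-0.16). Over its 4 probe sets the median was -0.092. The difference of the brightest turned to -0.019 under quantile normalization of the arrays and to -0.0050 after subtraction of a loess curve.

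Foxd4, a FoxD class factor of the early embryo, had the largest difference of the set. Its probe set read 51.6 in the wild type and 115 in the knockout, a ratio of 2.24 and a difference of 0.96 at the 99.9th percentile. It rests on 1 probe set, so no second one could be compared. The wild-type value lies near the expression level, in the dimmest of the 4 level classes, whose differences had an SD of 0.18. With a pseudocount of 64 the difference was 0.63, and with a pseudocount of 1 it was 1.15. Without Foxd4 the other 9 members had a median of 0.088, 8 of them higher.

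**Figure D2:**
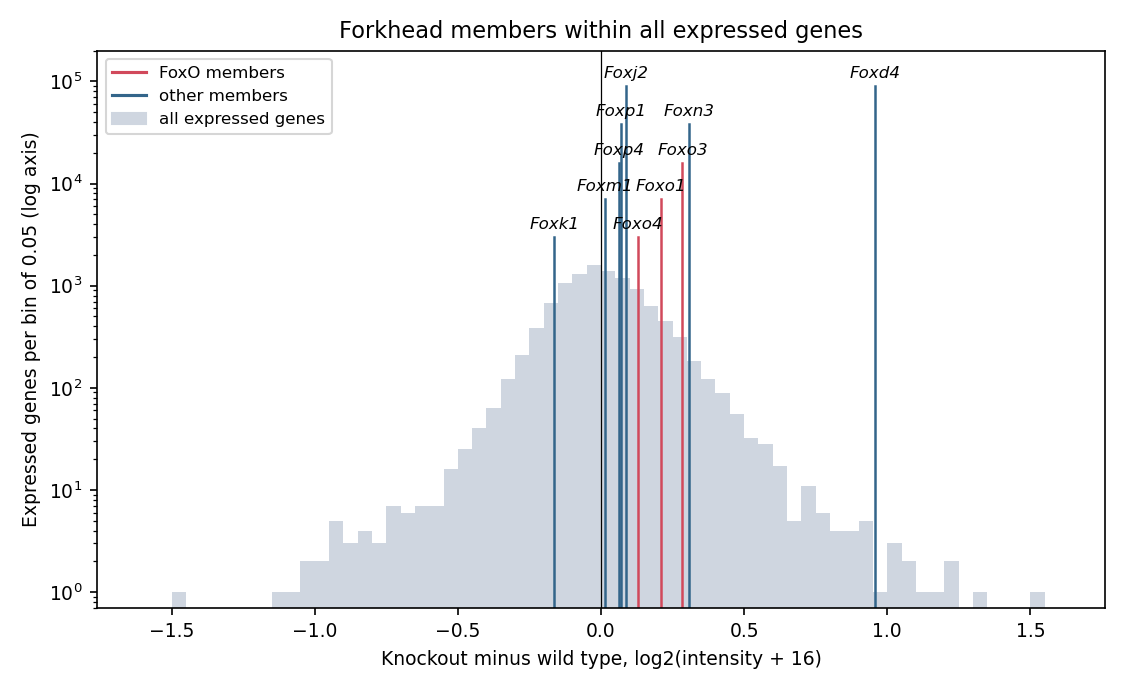
Differences (knockout minus wild type, log2(intensity + 16)) of the 10 members, drawn as lines in red for FoxO genes and blue for the others, over a histogram of all 11006 expressed genes (number per bin of 0.05, log axis; the height of a line carries no value). The other 9 members lie between -0.16 and 0.31, inside the bulk of the genes, and Foxd4 is at 0.96. Foxm1 is below 0 under quantile normalization or loess, and Foxk1 is above 0 when centred on the poly-A controls.

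Counted by probe set rather than by gene, the members agreed less. Of 29 expressed forkhead probe sets 21 were higher and 8 lower, and their median was 0.071. Within Foxo1, Foxo3, Foxp1 and Foxm1 some of them share a source sequence, so the 29 are not independent readings. Of all expressed probe sets named for 1 gene, 53.6% were higher. The 5 probe sets below the expression level, 2 of them higher, ran from -0.10 to 0.10. With the mean of all probe sets of a gene, 7 of the 10 members were higher in place of 9, since Foxp4 then stood at -0.072 and Foxm1 at -0.099.

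**Figure D3:**
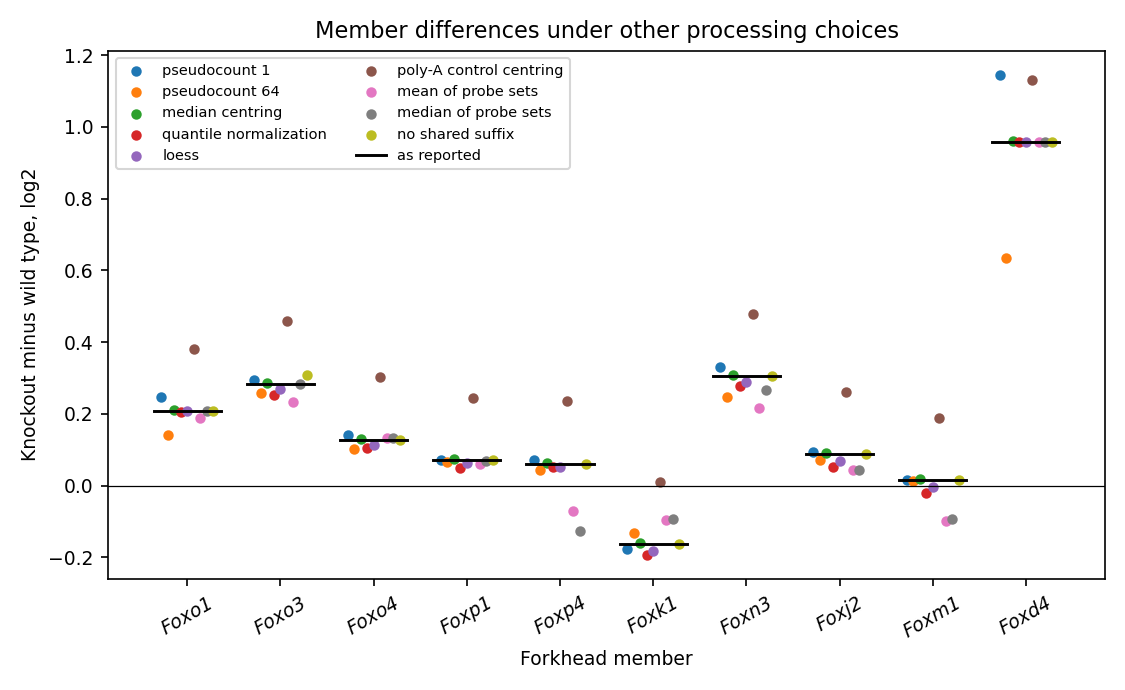
Difference of each member (knockout minus wild type, log2) as reported (black bars) and under 9 other processing choices (coloured points). Foxo1, Foxo3, Foxo4, Foxp1, Foxn3, Foxj2 and Foxd4 are above 0 under all of them. Foxp4 and Foxm1 cross 0 with the mean or median of probe sets, Foxm1 also with quantile normalization and loess, and Foxk1 with poly-A control centring.

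The array names 27 further forkhead genes, and 17 of them were below the expression level, including Foxa1, Foxc2, Foxp2 and Foxp3. The 10 that counted as expressed had a median of 0.055, and 6 of them were higher. Among them were Foxn2 (670 in the wild type and 744 in the knockout, 0.15, with -0.026 on its other probe set) and Foxj3 (474 and 551, 0.21, with 0.41 on its other expressed probe set). Foxk2, the partner of Foxk1, gave 329.6 and 312 (-0.075), and all 5 of its probe sets were lower, from -0.21 to -0.061. The brightest probe sets of Foxk1 and Foxk2 are both above 0 on a poly-A centred scale, so their shared lower sign holds for the intensities as deposited. The dim genes Foxf1 (0.35), Foxh1 (0.077), Foxl2 (0.065) and Foxn4 (0.045) were higher. Foxe3 (-0.10), Foxd2 (-0.096) and Foxb2 (-0.073) were lower.

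Genes that act on FoxO proteins differed little on their brightest probe sets. Of 23 expressed genes listed upstream of FoxO proteins 17 were higher and 6 lower. The list holds the PI3K, Akt and 14-3-3 route and other regulators, among them Mapk8, Stk4, Cdk2, Ikbkb, Ppp2ca and Xpo1. The median of the 23 genes was 0.058, and 1 passed 0.2 upwards and none downwards. That gene was Pik3ca, a catalytic subunit of PI3K, with 309 in the wild type and 363 in the knockout (0.22). The kinases Sgk1 (0.17) and Sgk3 (0.16, with probe sets up to 0.40), which phosphorylate FoxO proteins as Akt does, followed. Mapk8, a kinase that opposes the export of FoxO proteins, stood at -0.15 with probe sets from -0.19 to 0.31. Over all expressed probe sets of the list, differences ran from -0.19 in Mapk8 to 0.47 in Ikbkb. In this list 10 of 19 genes with more than 1 expressed probe set had both signs. Of 14 expressed genes listed as modifying or degrading FoxO proteins 8 were higher and 6 lower. The 8 include Mdm2, at 581 on both arrays. The median of the 14 genes, 0.0041, became -0.023 under quantile normalization and -0.0035 under loess. The largest were the acetyltransferase Kat2b (542 and 669, 0.30), the methyltransferase Setd7 (0.23), the methyltransferase Prmt1 (-0.18) and the deacetylase Sirt3 (0.17).

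Listed FoxO target genes were more often higher than expressed genes in general. Over all 6 target lists 57 genes were expressed, of which 42 were higher and 15 lower, where 49.7% of all expressed genes were higher. Their median was 0.15, with an SD of 0.30 between genes, beside an SD of 0.18 over all expressed genes. By at least 0.2, 23 were higher (40.4% of the 57, beside 12.1% of all expressed genes). By the same margin 6 of the 57 were lower, where 8.27% of all expressed genes were. Leaving out 4 of them (Bmf, Igf1r, Klf2 and Lpl), whose values were known when the lists were written, gave 20 of 53 higher by at least 0.2 and a median of 0.13. All lists were chosen with earlier results of these data known, so the remaining 53 are not an independent check. Among the 35 target genes with more than 1 expressed probe set, 10 had probe sets of both signs. These genes have other regulators too, and no test set them apart from other genes. Markers of other cells differed between the arrays as well, monocyte and macrophage markers being higher in 7 of 9 and mast cell and basophil markers lower in 10 of 10. Their part in the target differences was not tested.

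Of the cell cycle arrest and growth targets 12 of 14 were higher, 9 by at least 0.2, and their median was 0.22. Btg1, an antiproliferative gene, was at 2210 in the wild type and 2886 in the knockout (0.38), with all 3 probe sets between 0.31 and 0.38. Klf2, a quiescence factor of leukocytes, gave 780 and 992 (0.34), and its relative Klf6 gave 522 and 641 (0.29). The exception in size was Cdkn1a, the Cdk inhibitor p21, which was lower at 501 and 394 (-0.34, and -0.27 on its other probe set). Its fellow inhibitor Cdkn1b, p27, stood at 0.21.

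The autophagy targets were also mostly higher, 10 of 11 expressed genes, 5 by at least 0.2, with a median of 0.15. Map1lc3a, which encodes a protein of autophagosome membranes, gave 812 in the wild type and 1156 in the knockout (0.50, and 0.37 on its other probe set). Atg14, a subunit of the lipid kinase complex that starts autophagosomes, gave 124 and 161 (0.34). The mitophagy kinase Pink1 stood at 0.28 and the kinase Ulk2 at 0.24. The muscle atrophy ligases Fbxo32 and Trim63 were below the expression level.

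Apoptosis targets were divided. The 8 expressed ones had a median of 0.12, and 6 of them were higher. Bmf, a BH3-only killer protein, stood highest (51.3 in the wild type and 119 in the knockout, on 1 probe set). Txnip, an inhibitor of thioredoxin and of glucose uptake, gave 1866 and 2496 (0.42, and 0.58 on its other probe set). Bcl2l11, which encodes the BH3-only protein Bim and is a textbook FoxO3 target, was lower at 712 and 606 (-0.23), with its 5 probe sets from -0.31 to 0.30. Bnip3 stood at 0.20.

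Redox and repair targets had no common direction, with 5 of 10 higher and a median of -0.0063. Under the mean of probe sets this median was 0.062, and with poly-A control centring it was 0.17. Sod2, the mitochondrial superoxide dismutase, was lower at 2595 in the wild type and 1763 in the knockout (-0.55, with probe sets from -0.58 to 0.031). Gadd45g, a stress gene, was higher at 298 and 511 (0.75), as was the selenium carrier Selenop at 1302 and 1809 (0.47). Prdx3, a mitochondrial peroxidase, stood at -0.21.

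Signalling and metabolism targets had a median of 0.090 over 11 expressed genes, 7 of them higher. Igf1r, a receptor tyrosine kinase for IGF1, stood at 0.63 with probe sets from -0.065 to 0.63. Tsc22d3, the glucocorticoid-induced leucine zipper, stood at 0.43 with probe sets from 0.025 to 0.47. The adiponectin receptor Adipor1 stood at 0.35 with probe sets from 0.090 to 0.35, and the lipase Lpl at -0.99 (168 and 76.5). Of the homing and receptor targets 3 were expressed: Tlr4 (0.31), the chemokine receptor Cxcr4 (0.17) and the sphingosine phosphate receptor S1pr1 (-0.40).

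**Figure D4:**
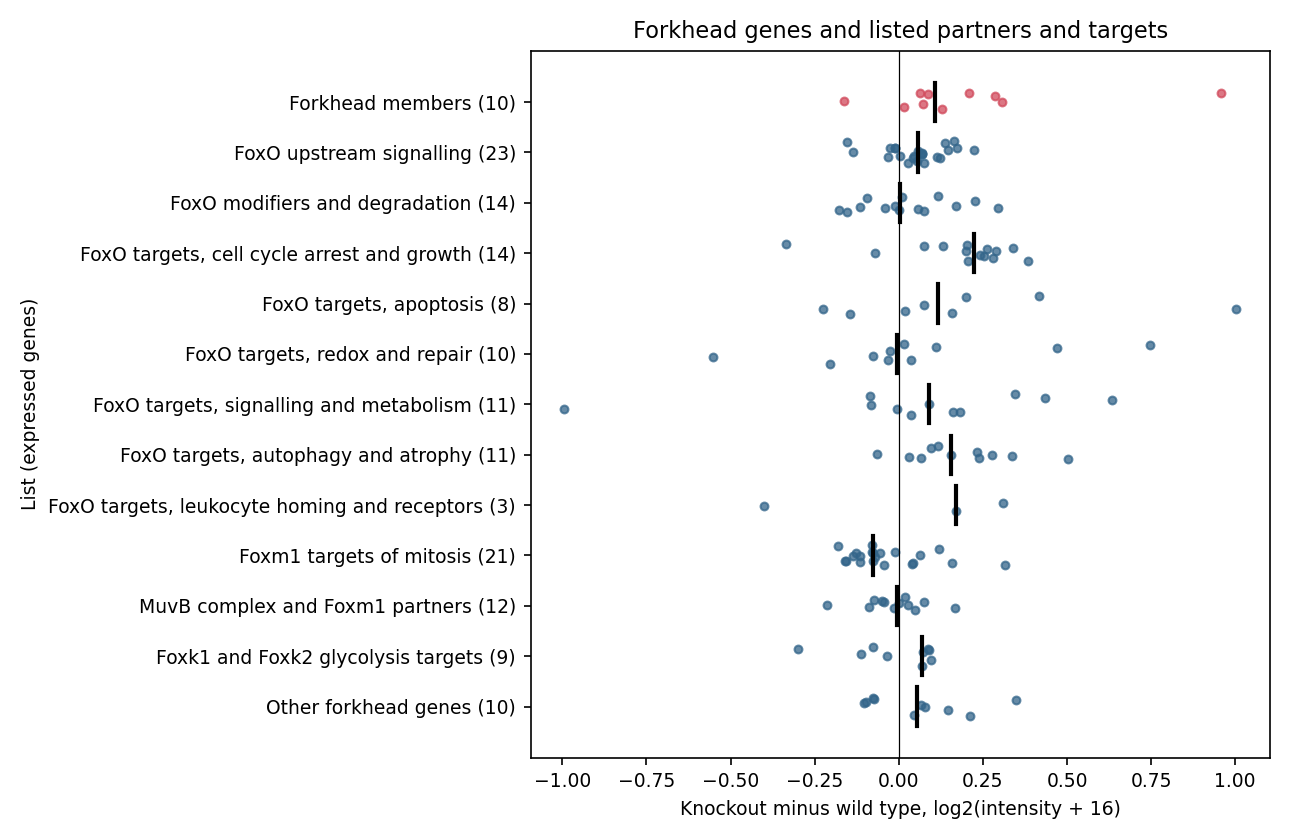
Differences (knockout minus wild type, log2(intensity + 16)) of the expressed genes in each list, 1 point per gene with vertical scatter for visibility only, black bars at the median, and the number of expressed genes in parentheses. Among the lists plotted, which leave out the cell type markers, the cell cycle arrest list has the highest median (0.22) and the Foxm1 target list the lowest (-0.077), which becomes 0.096 with poly-A control centring. The redox and MuvB medians become positive on that scale, the FoxO modifier median turns negative under quantile normalization or loess, and the glycolysis median turns negative without shared probe sets.

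Promoter sequence was examined for the forkhead core, spelled TGTTTAC, on both strands from 250 bases before to 50 bases after the gene start in RefSeq, GRCm38.p6. The core was present in 3.65% of all 32851 promoters and in 9 of 77 promoters of the listed FoxO targets (11.7%). It was in none of the 9 promoters found for 7 of the members. Promoters of Foxo4, Foxk1 and Foxm1 were not analysed here. The 273 expressed genes with a core in a promoter had a median difference of 0.028 (SD 0.21), and 17.6% were higher by at least 0.2. For the 8707 without it the median was -0.0020 (SD 0.18) and the share 12.0%. The stretches below show the core (capitals, in the orientation of the gene, as TGTTTAC or its reverse complement GTAAACA) with up to 10 flanking bases, for the 5 expressed targets with a core that are named above. All are on the plus strand: Btg1 at chr10:96616787-96616813, Txnip at chr3:96557826-96557852, Selenop at chr15:3270943-3270969, Adipor1 at chr1:134415690-134415713 and Bcl2l11 at chr2:128125801-128125827.
Btg1: ggggtttattTGTTTACaagcagatta
Txnip: tggaggcctgGTAAACAagggccaagt
Selenop: agagggcgagGTAAACAacagggctat
Adipor1: aaggtcctccGTAAACAtttccgg
Bcl2l11: agacactaggGTAAACAcgccggggtg
On their brightest probe sets Btg1 (0.38), Txnip (0.42), Selenop (0.47) and Adipor1 (0.35) were higher and Bcl2l11 (-0.23) was lower. Of the other 4 targets with a core, Trim63 was not expressed. On their brightest probe sets Bbc3 (0.075), Mxi1 (0.075) and Sesn1 (-0.031) were within the SD between probe sets. Mxi1 was at 0.26 on its other expressed probe set, and the probe sets of Sesn1 ran up to 0.14. A match of these letters is a description of sequence and does not show binding.

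Genes of mitosis activated by Foxm1 were slightly lower on the knockout array as deposited, like 2 of the 3 expressed Foxm1 probe sets. Of 21 expressed targets 6 were higher and 15 lower. Their median was -0.077. It was -0.028 with the mean of probe sets and 0.096 with poly-A control centring, and 7 of the 14 targets with more than 1 expressed probe set had both signs. Only Nek2, a centrosome kinase, passed 0.2 in size, and it was higher (728 in the wild type and 910 in the knockout, 0.32). Cenpe, a kinetochore motor, stood at -0.18, Cdc20, an activator of the anaphase ligase, at -0.16 (with probe sets up to 0.016) and Cks1b, a Cdk subunit, at 0.16. Foxm1 binds those promoters with the MuvB complex. The 12 genes listed for that complex and for partners of MuvB or Foxm1 were divided 6 to 6. Their median was -0.0066 (0.17 with poly-A control centring). Cdk1 was lowest (2302 and 1983, -0.21) and E2f4, a repressor partner, highest (0.17). Glycolysis genes reported as Foxk1 and Foxk2 targets were divided 5 to 4, with a median of 0.069 that became -0.032 without probe sets of shared sequence. Hk2, a hexokinase, gave 1349 and 1094 (-0.30). Pfkp, a phosphofructokinase (-0.11, and 0.17 on its other probe set), the pyruvate kinase Pkm (0.095) and the aldolase Aldoa (0.091) were within the SD between probe sets on their brightest probe sets.

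The labelled cell type was checked against its markers. All 13 measured neutrophil genes, among them S100a8, S100a9, Ltf, Mpo and Elane, were expressed, with a summed intensity of 163346 in the wild type and 173056 in the knockout. Of these 12 were higher, 5 by at least 0.2, and 1 was lower, and their median of 0.15 was above the 0.11 of the forkhead members. Markers of other blood cells gave signal too, and differed between the arrays. The mast cell and basophil markers were lower, 10 of 10 expressed, with a median of -0.53 and summed intensities of 6710 and 4684. Of the platelet markers 6 of 7 were lower (2058 and 1321), and 3 of 4 eosinophil markers (1192 and 968). The platelet marker that was higher, Itgb3, had the largest difference of its list (71.1 and 205, 1.34, with 0.37 on its other expressed probe set). Likewise the eosinophil marker that was higher was Siglecf (187 and 370, 0.92). The eosinophil genes Il5ra and Ccr3 were below the expression level. Monocyte and macrophage markers were higher in 7 of 9 (5187 and 5980), with C1qa, C1qc and Mrc1 below the expression level. Csf1r made up most of that sum (3580 and 3836, 0.099). Their differences ran from -0.60 in Cx3cr1 (207 and 131) to 1.51 in Apoe (156 and 473). Progenitor markers were higher in 6 of 7 (7260 and 8095), T and NK cell markers lower in 4 of 5 although their sum was higher (1128 and 1401), B cell markers higher in 2 of 4 (876 and 1294) and erythroid markers lower in 2 of 3 (4941 and 4594). A single gene made up most of the sum for T and NK cells (Nkg7, 847 and 1181), B cells (Ighm, 662 and 1042) and erythroid cells (Tfrc, 4817 and 4464). The B cell genes Cd79a, Ms4a1, Ebf1 and Vpreb1, the T cell genes Cd3e and Cd3g and the erythroid genes Hba-a1, Alas2 and Slc4a1 were below the expression level. The forkhead members and FoxO targets are also expressed in several of these cells. The part of the neutrophil markers and of these cells in the members' differences was not tested either.

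The 24 probe sets of poly-A control RNAs were all lower on the knockout array, with a median of -0.17. Centring on them raised every difference by 0.17, so that 88.7% of expressed genes in place of 49.7%, and 10 of the 10 members, were higher. The values above are relative to the intensities as deposited. How the authors normalized them was not given in the sources used here.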

How the data were processed

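The deposited table, made by the authors, holds a linear intensity for each of 45101 probe sets on each array. Per the labels, total RNA was isolated by Trizol and labelled with biotin by the 3' IVT Express kit, which favours sequence near the 3' end. The authors' background correction, summarization and normalization were not given in the sources used here. These intensities were used as deposited (medians of 34.2 on the wild-type and 33.8 on the knockout array) and transformed to log2(intensity + 16), which shrinks differences of dim genes.

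After 64 array controls were set aside, 34945 probe sets had 1 gene symbol, 932 had several and 9160 had none. Symbols of 34741 were updated by Entrez identifier with RefSeq (GRCm38.p6), and none changed among the forkhead genes. The value of a gene was that of its brightest probe set by mean log2 value. It counted as expressed if that mean reached the median of all probe sets. All other probe sets of the members are given.

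No test was run, as each genotype has 1 array. Counts and medians of a list stand beside those of all expressed genes. The members and all gene lists were chosen with earlier results of these data known. Named genes were all members and the expressed forkhead genes. Of each list except the cell type markers, up to 4 expressed genes with the largest differences were named. Not all marker genes with large differences were named. Others, such as Cdkn1b, Bbc3, Mxi1, Sesn1 and marker genes, were named after their values were seen. Alternatives were pseudocounts of 1 and 64, median, quantile, loess (span 0.3) and poly-A control scaling, the mean or median of probe sets, leaving out probe sets with a suffix for shared sequence, and an expression filter at the 75th percentile or none. Scripts in Python 3.11.15 (numpy 2.4.6, pandas 2.3.3, statsmodels 0.14.6) were tested on simulated data.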

Additional observations from a re-analysis of the deposited data

How the results depend on the processing

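The median difference of the expressed forkhead members was 0.11 as reported. Over 11 alternatives it ran from 0.071 to 0.28 and stayed above 0. The highest, 0.28, came with centring on the poly-A controls, which adds 0.17 to every gene by construction. The count of members higher on the knockout array was 9, from 7 with the mean or median of probe sets to 10 with poly-A centring. At a filter at the 75th percentile it was 4, since that filter kept 5 of the 10 members. Of 90 values of single members under alternatives, 13 moved by more than the SD between probe sets. Poly-A centring moved all 10 members by construction, since the 0.17 it adds exceeds that SD. The other moves were Foxd4 with pseudocounts of 1 and 64 and Foxp4 with the median of probe sets. Of the 90 values 7 changed sign, in Foxm1 (4), Foxp4 (2) and Foxk1 (1). The number of expressed genes that differed by at least 0.5, 189 as reported, was 16 at a threshold of 1, 288 and 107 with pseudocounts of 1 and 64, 496 with poly-A centring and 102 at the stricter filter. That filter also turned the eosinophil marker median from -0.53 to 0.098. No paired analysis was possible because each genotype has 1 array. For dim genes such as Foxo1 and Foxd4 the pseudocount sets part of the size: Foxo1 ran from 0.14 (64) to 0.25 (1).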
